A study of Mus musculus with 2 samples.

Results

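Cycling C1q macrophages of MC38 tumors were examined in 2 single-cell libraries. They were selected on their UMIs (unique molecular identifiers, each marking 1 captured RNA molecule). A cell qualified as a C1q macrophage when its barcode had at least 2000 UMIs, at most 25% mitochondrial UMIs, no UMI of the T cell receptor genes Cd3d and Cd3g, and at least 10 UMIs of the complement genes C1qa, C1qb and C1qc, outnumbering those of the monocyte genes Ly6c2, Ccr2 and Chil3. It was counted as cycling when it also had at least 5 UMIs of Mki67, Top2a, Birc5, Ube2c and Pclaf together. This gave 312 cycling cells among 2098 C1q macrophages and 7408 cells in all. The remaining 1786 C1q macrophages, with fewer than 5 such UMIs, are called the other C1q macrophages.

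MC38 is a mouse colon carcinoma line, here grown under the skin of WT mice, and CD45+ immune cells were sorted from the tumors. The Control library came from tumors that were not irradiated, and the IR library from tumors that received 20 Gy at once and were taken 4 days afterwards. Each library pooled the tumors of 4 mice, so each group had 1 library and no replicate. The methods give mice of both sexes, 8 to 10 weeks old, for the experiments as a whole. In the tumor growth experiments WT means Ythdf2 fl/fl without Cre on C57BL/6J, and for these libraries the records say WT alone. The sample records also name a narrower gate, CD45+CD11b+Ly6Chi, which the CD45+ sort and the T and NK cells present do not match. A difference between IR and Control therefore describes these 2 libraries and was not tested. Every 95% interval given covers counting error only, not differences between mice or libraries. Intervals of summed UMIs also leave out the spread between cells. A share of sorted cells does not give the number of cells in a tumor.

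Tissue macrophages can be replenished from blood monocytes or by division in place. A dividing cell first licenses and fires its replication origins and copies its DNA (S phase), then condenses its chromosomes, builds a spindle and separates the copies (G2 and M phase), and each step has its own set of transcripts. C1qa, C1qb and C1qc encode the subunits of C1q, the recognition part of the classical complement pathway, and mark mature macrophages of tissues and tumors.

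The 5 genes of the rule belong to different steps, most of them to G2 and M phase. Mki67 (chromosome 7, 135689784 to 135716361 on GRCm38) encodes the Ki-67 antigen that coats mitotic chromosomes. Top2a (chromosome 11, 98992943 to 99024189) encodes the topoisomerase that untangles copied DNA. Birc5 (chromosome 11, 117849251 to 117855743) encodes survivin of the chromosomal passenger complex. Ube2c (chromosome 2, 164769898 to 164778822) encodes the ubiquitin-conjugating enzyme of the anaphase-promoting complex. Pclaf (chromosome 9, 65890237 to 65903266) encodes a factor bound to the replication clamp PCNA. Together they had 1948 CPM (the UMIs of a gene scaled to a common total for each population) in the cycling cells of Control and 1212.5 CPM in those of IR, against 46.4 and 13.6 CPM in the other C1q macrophages. These values chose the cells and are not a finding. Pclaf was at 527.5 and 276 CPM, Ube2c at 452 and 308 CPM, Top2a at 420 and 210 CPM, Birc5 at 320 and 271 CPM and Mki67 at 228 and 149 CPM in Control and IR.

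Of the Control C1q macrophages, 61.6% had none of these UMIs, and in IR 80.6% had none. Just inside the threshold, 20 Control cells and 2 IR cells had exactly 5 UMIs, and just outside it 35 and 1 had 4. Most members had at least 15 UMIs. Of the 279 Control members 193 had 15 UMIs or more and 114 had 30 or more, and of the 33 IR members 20 and 11. Members ranged from 5 to 112 UMIs with a median of 24 in Control, and from 5 to 98 with a median of 19 in IR.

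**Figure D1:**
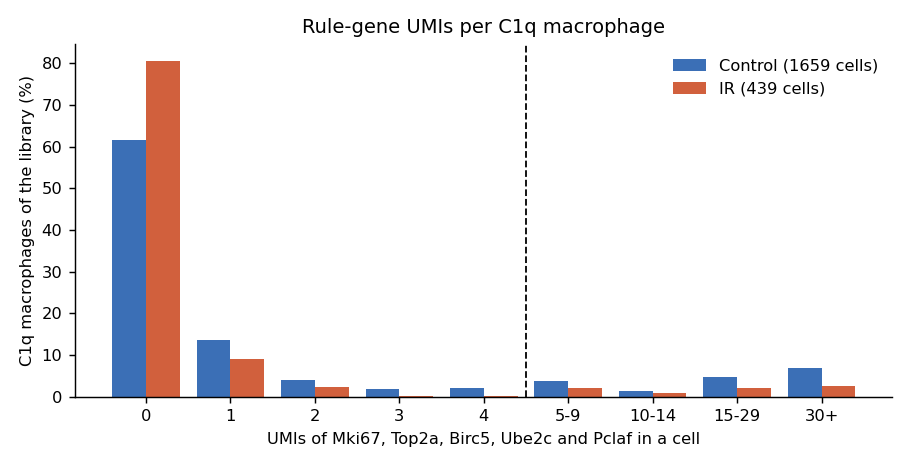
Number of UMIs of the 5 rule genes in each C1q macrophage (x axis, binned) against the share of C1q macrophages of the library (y axis, percent), for 1659 Control cells (blue) and 439 IR cells (orange). The dashed line is the threshold of 5 UMIs, to the right of which lie 279 Control and 33 IR cells, with 114 and 11 of them at 30 UMIs or more.

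Cycling cells were 279 of 1659 C1q macrophages in Control (16.8%, exact binomial interval 15.05% to 18.7%) and 33 of 439 in IR (7.52%, 5.23% to 10.4%). The ratio of IR to Control was 0.447 (0.317 to 0.631). C1q macrophages themselves were a smaller part of the IR library, 13.9% of 3159 cells against 39.0% of 4249 cells. Over all cells, cycling C1q macrophages thus made up 6.57% (5.84% to 7.35%) of Control and 1.04% (0.720% to 1.46%) of IR, a ratio of 0.159 (0.111 to 0.228).

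Depth bears on a rule that counts raw UMIs, and the IR members were the deeper cells. Cycling members had a median of 14064 UMIs in Control and 20467 in IR, and the other C1q macrophages 8640 and 10624. With every C1q macrophage thinned to 2000 UMIs and at least 2 rule-gene UMIs required, 232 of the 1659 Control cells and 20 of the 439 IR cells (4.56%, 2.80% to 6.95%) were cycling, which is a ratio of 0.326 (0.209 to 0.508). At 5000 UMIs and at least 3, which left out 300 Control and 48 IR cells that were shallower, the shares were 18.5% (16.4% to 20.6%) and 6.91% (4.60% to 9.89%), and their ratio 0.374 (0.256 to 0.547). The share climbed with depth in both libraries and was lower in IR in each depth class. It was 12 of 300 and 0 of 48 cells of 2000 to under 5000 UMIs, where 0 of 48 allows a share of up to 7.40%. In cells of 5000 to under 10000 UMIs it was 63 of 643 (9.80%) and 4 of 148 (2.70%), and in cells of 10000 to under 20000 UMIs 148 of 615 (24.1%) and 12 of 170 (7.06%). Among cells of 20000 UMIs and over, 56 of 101 in Control (55.4%, 45.2% to 65.3%) and 17 of 73 in IR (23.3%, 14.2% to 34.6%) were cycling. At an equal depth of 5000 UMIs, members still had more genes than the other C1q macrophages, a median of 1927 against 1818.5 in Control and 1960 against 1824 in IR.

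Other cell classes were gated with the same cell filter. Monocytes (at least 10 UMIs of Ly6c2, Ccr2 and Chil3, and no fewer than of C1q) were cycling in 27 of 455 Control cells (5.93%) and 21 of 793 IR cells (2.65%), a ratio of 0.446 (0.255 to 0.780). T cells (at least 2 UMIs of Cd3d and Cd3g) were cycling in 70 of 483 Control cells (14.5%) and 52 of 400 IR cells, a ratio of 0.897 (0.643 to 1.252). NK cells (at least 2 UMIs of Ncr1 and Klrb1c and none of Cd3d and Cd3g) were cycling in 9.29% of 226 and 9.97% of 291 cells, a ratio of 1.07 (0.629 to 1.83). For T and NK cells the interval of the ratio held 1 and no difference was detectable at this depth, which does not show that they were alike. The difference of the ratio between classes was not tested. Thinned to 2000 UMIs, the ratios were 0.349 in monocytes, 0.760 (0.506 to 1.14) in T cells and 0.695 (0.370 to 1.31) in NK cells, against 0.326 (0.209 to 0.508) in C1q macrophages, so that the interval of the macrophages overlapped those of both. Neutrophils, which do not divide, gave 0 of 4 and 0 of 114 cells, at median depths of 2674 and 3189 UMIs that are far below those of the members. Thinned to 2000 UMIs and with at least 2 rule-gene UMIs, they gave 1 of 4 and 0 of 114 cells, so the Control class is too small to set a background.

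**Figure D2:**
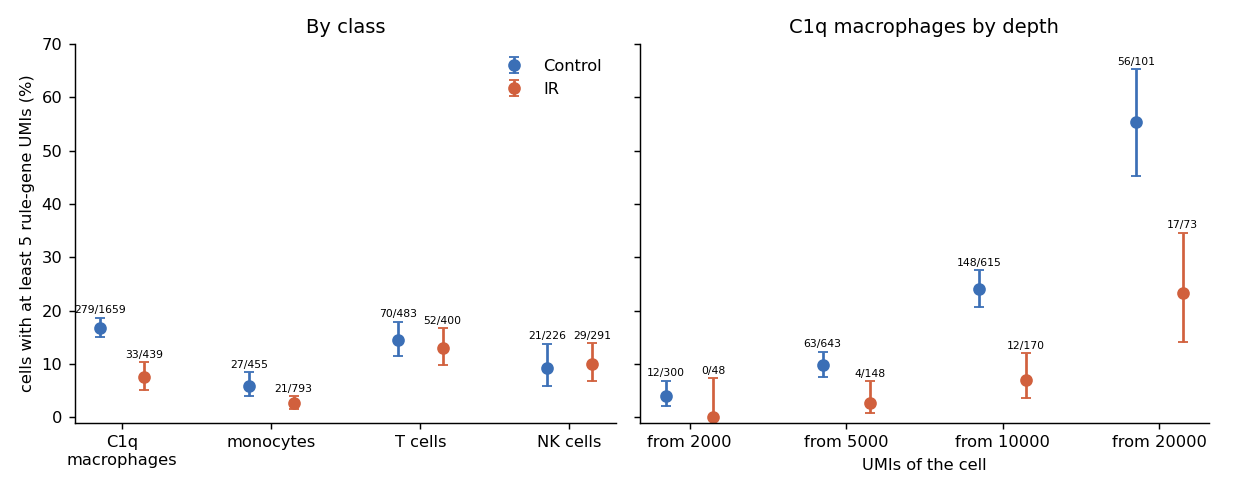
Share of cells with at least 5 rule-gene UMIs (y axis, percent) by cell class (left) and, for C1q macrophages, by depth class, labelled by its lowest number of UMIs (right), in Control (blue) and IR (orange). Points are shares, bars exact binomial 95% intervals and labels the counts. C1q macrophages stand at 16.8% and 7.52%, T cells at 70 of 483 and 52 of 400 cells, and the IR share of C1q macrophages is the lower in each depth class.

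The smaller share in IR was present in subsets of C1q macrophages split at the pooled median of a gene list, each cell thinned to 2000 UMIs for the split. Of cells with few interferon-list UMIs, 205 of 1065 in Control (19.2%) and 6 of 58 in IR (10.3%) were cycling, a ratio of 0.537 (0.249 to 1.16). Of cells with many, 74 of 594 (12.5%) and 27 of 381 (7.09%) were cycling, a ratio of 0.569 (0.373 to 0.867). Splits on the resident-like, MHC class II and tumor macrophage lists gave ratios from 0.398 to 0.479, each with an interval below 1. The resident-like list holds markers of long-lived tissue macrophages such as Folr2 and Lyve1. Within Control, the cycling share was 20.2% in cells low and 13.5% in cells high for this list. In Control it was also lower in the high cells for the tumor macrophage, MHC class II and interferon lists. The direction was thus not particular to the resident-like list.

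Free RNA is a further source of rule-gene UMIs. Barcodes with at most 100 UMIs, taken as empty droplets, held the 5 genes at 606 CPM in Control and 267 CPM in IR. At a free RNA content of 5%, a member of median depth would have 0.426 such UMIs in Control and 0.273 in IR, against the threshold of 5.

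Phase genes were then read without the 5 rule genes. The S phase list (43 genes) and the G2M phase list (50 genes) were summed in each C1q macrophage thinned to 5000 UMIs, and a cell was called high for a list when it had more than 10 UMIs, the 95th percentile of the other C1q macrophages for both lists. These classes were set after the data had been seen. They divide a continuous range, and 29 of 267 Control and 2 of 33 IR members lay at a cut or 1 UMI above it. Of all C1q macrophages, 212 of 1359 in Control (15.6%, 13.7% to 17.6%) and 17 of 391 in IR (4.35%, 2.55% to 6.87%) were high for the S list, a ratio of 0.279 (0.172 to 0.451). For the G2M list 295 (21.7%, 19.5% to 24.0%) and 39 (9.97%, 7.19% to 13.4%) were high, a ratio of 0.460 (0.336 to 0.629). Cells high for either list were 26.5% and 11.5%, a ratio of 0.434 (0.325 to 0.580).

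Among the members, 254 of 267 in Control (95.1%) and 29 of 33 in IR (87.9%) were high for at least 1 list. In Control 137 were high for both lists (51.3%, 45.1% to 57.5%), 106 for G2M alone (39.7%, 33.8% to 45.8%) and 11 for S alone. In IR 10 were high for both (30.3%, 15.6% to 48.7%), 17 for G2M alone (51.5%, 33.5% to 69.2%) and 2 for S alone. The median member had 12 S list UMIs per 5000 in Control and 6 in IR, and 30 and 23 G2M list UMIs. The intervals of these classes overlapped between the libraries. Most of the rule genes act in G2 and M phase, so the rule itself favored members high for G2M over members high for S. The other C1q macrophages also held 64 S-high cells of 1092 in Control (5.86%, 4.54% to 7.42%) and 5 of 358 in IR (1.40%, 0.455% to 3.23%), 54 and 4 of which were high for S alone. Because the cut was the 95th percentile of the other C1q macrophages, it largely fixed how many of them, over both libraries, were high. Whether the 5-gene rule leaves out cells in S phase was therefore not tested. By a coarser measure, S list UMIs per gene above G2M list UMIs per gene, 74 of 279 Control members (26.5%, 21.4% to 32.1%) and 6 of 33 IR members (18.2%, 6.98% to 35.5%) were led by S. The same measure gave 32.6% and 26.1% of the other C1q macrophages, so it separates phases poorly where UMIs are few.

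**Figure D3:**
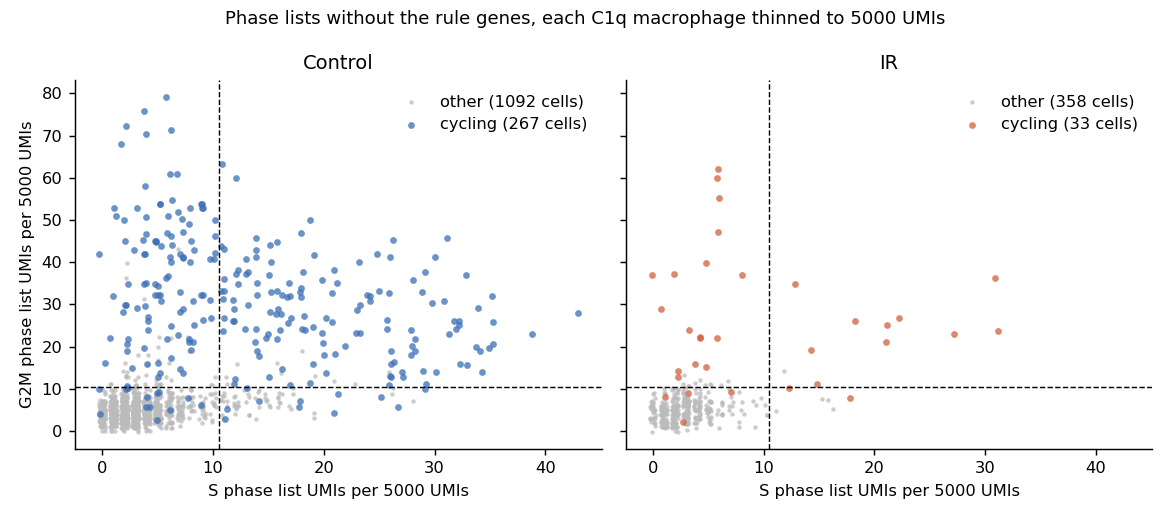
UMIs of the S phase list (x axis) and of the G2M phase list (y axis), rule genes left out, in each C1q macrophage thinned to 5000 UMIs, with points spread by up to 0.3 UMIs, in Control (left) and IR (right). Grey points are other C1q macrophages, colored points cycling ones, and dashed lines the cuts above 10 UMIs. The upper right holds 137 Control and 10 IR members.

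Genes of the cell cycle were compared between cycling and other C1q macrophages within each library. Since members were chosen by co-expressed genes of the same cells, these are descriptions. A gene was kept with at least 50 CPM in either population and counted as higher or lower past a 2-fold ratio of CPM plus 10. In Control 145 of 3047 genes were higher (4.76%) and 17 lower (0.558%). In IR 111 of 3124 were higher (3.55%) and 74 lower (2.37%). The median log2 ratio of all genes was 0.02 and 0.08.

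Members carried more transcripts of each stage of division in both libraries. Of the S phase list 15 of 18 genes kept in Control and 12 of 17 in IR were higher past 2-fold, with median log2 ratios of 1.59 and 1.67. Of the G2M list these were 33 of 36 and 25 of 27, with medians of 2.61 and 2.47. Of 18 origin licensing genes 7 were kept in Control and 6 in IR, and 7 and 5 of these were higher. All 18 together, without the minimum, were at 989 against 264 CPM in Control and at 752 against 198 CPM in IR. Among them Mcm7, a subunit of the replicative helicase, was at 120 CPM in Control members against 19.7 CPM in other Control macrophages, and at 72.5 against 11.8 CPM in IR. Gmnn, which encodes the licensing inhibitor geminin, was at 129 against 28.1 CPM and at 94.5 against 25.7 CPM. Of 30 replication fork and nucleotide supply genes 17 and 13 were kept. Of these 15 and 11 were higher, with medians of 1.75 and 2.15. Rrm2, a subunit of the ribonucleotide reductase that makes DNA precursors, was at 154 CPM in Control members and 77.6 CPM in IR members, against 3.46 and 1.82 CPM. Pcna, the replication clamp, was at 359 and 256 CPM against 131 and 108 CPM, so that the other macrophages also had a clear level of it.

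The kinase and spindle lists of mitosis had the larger median ratios. Since most of the rule genes act in G2 and M phase, the rule favored this order, and it is not a finding. Of 25 G2/M kinase and checkpoint genes 15 were kept in Control and 10 in IR. Of these 15 and 8 were higher, with medians of 2.59 and 2.47. Of 35 spindle, kinetochore and cytokinesis genes 25 and 19 were kept, all of them higher, with medians of 2.85 and 2.81. Cdk1, the mitotic kinase, was at 158 and 136 CPM in members against 9.19 and 4.26 CPM. Stmn1, which encodes the microtubule regulator stathmin, was at 821 CPM in Control members against 55.5 CPM and at 503 CPM in IR members against 19.3 CPM, and was seen at 5000 UMIs in 247 of 267 and 27 of 33 members. Tubb5, a beta-tubulin, was at 1759 and 1346 CPM against 458 and 443 CPM. Of 21 condensation and chromatin genes 17 and 15 were kept. Of these 16 and 13 were higher, with medians of 1.65 and 1.68, below those of the replication fork list. Hmgb2, a chromatin protein of dividing cells, was at 1077 and 692 CPM against 141 and 131 CPM. H2afz, a histone variant gene, was at 2793 and 2038 CPM against 908 and 637 CPM, and was seen in every member at 5000 UMIs. Of the homologous recombination and DNA damage list 3 of 18 genes were kept in Control and 1 in IR, all higher past 2-fold, and the cohesin gene Rad21 was at 174 and 110 CPM against 46.8 and 41.5 CPM.

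The 12 genes with the largest ratios in both libraries, out of 92 that were higher in both among 2796 considered, were Hist1h2ap, Stmn1, Cdca3, Ccna2, Cdca8, Cenpf, Cdk1, Racgap1, Tk1, Rrm2, Nusap1 and Kif23. Hist1h2ap, a replication-linked histone gene with near-identical copies in its cluster, so that its level is uncertain, was at 436 and 246 CPM in members against 8.25 and 3.85 CPM, log2 ratios of 4.61 and 4.21. Ccna2, which encodes cyclin A2 of S and G2 phase, was at 179 and 104 CPM against 3.85 and 0.405 CPM (49 and 2 UMIs). Cdca3, a gene of mitotic entry, was at 199 and 154 CPM against 7.07 and 1.22 CPM, and Cdca8, another chromosomal passenger subunit, at 153 and 151 CPM against 8.33 and 5.88 CPM. Tk1, the thymidine kinase of S phase, was at 129 and 88.0 CPM against 5.97 and 1.82 CPM. Detection in single cells was partial, as in 149 of 267 Control members for Ccna2 and 88 of 267 for Cenpf, a kinetochore gene. Kif23, a motor of the dividing midzone, was last at 95.5 and 81.5 CPM against 3.93 and 2.84 CPM.

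Genes of G1 and of cell cycle arrest differed less between members and other macrophages. Of the G1 and S cyclin and E2F list 3 of 9 genes kept in Control and 2 of 7 in IR were higher past 2-fold, and of the CDK inhibitor and quiescence list 2 of 5 and 0 of 4, with medians of -0.03 and -0.35. Of the p53 targets 0 of 4 and 0 of 5 were higher past 2-fold. Cyclin D1 (Ccnd1) was at 179 CPM in Control members and 184 CPM in the other Control macrophages, and at 344 against 211 CPM in IR. Cdk4, its kinase partner, was at 154 against 83.8 CPM and at 146 against 72.4 CPM. The CDK inhibitor gene Cdkn1a was at 387 against 395 CPM in Control and at 532 against 587 CPM in IR, and was detected at 5000 UMIs in 195 of 267 and 27 of 33 members. Cdkn2d, another inhibitor gene, was at 72.8 against 18.2 CPM in Control and at 69.9 against 30.4 CPM in IR. The anti-proliferative gene Btg1 was at 618 against 868 CPM and at 749 against 1162 CPM. Ribosome biogenesis genes had a ratio above 1 in 5 of 6 and 7 of 7 cases, none past 2-fold, with Ncl, which encodes nucleolin, at 420 against 332 CPM and at 463 against 268 CPM.

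Promoters of 4 of these genes, for which windows from 250 bases before to 50 after the start were taken from RefSeq (GRCm38.p6), were searched for letters known from cell cycle promoters, with 3 genes of mitosis and 1 of replication printed. Capitals mark the motifs searched on both strands: the cell cycle homology region, CHR (TTTGAA or TTTAAA), known in genes of G2 and M phase, the CCAAT box (CCAAT), and the E2F site (TTTCCCGC or TTTGGCGC), known in genes of S phase. TTTAAA is its own reverse complement, and a CCAAT box and one of the opposite strand share 2 bases in the Ube2c window. Ccnb2 encodes cyclin B2 of mitosis, at 111 and 116 CPM in members against 7.70 and 1.22 CPM. Mcm5 encodes a subunit of the replicative helicase, at 108 and 82.8 CPM in members against 25.5 and 17.8 CPM.
Birc5, chr11:117848987-117849286, plus strand: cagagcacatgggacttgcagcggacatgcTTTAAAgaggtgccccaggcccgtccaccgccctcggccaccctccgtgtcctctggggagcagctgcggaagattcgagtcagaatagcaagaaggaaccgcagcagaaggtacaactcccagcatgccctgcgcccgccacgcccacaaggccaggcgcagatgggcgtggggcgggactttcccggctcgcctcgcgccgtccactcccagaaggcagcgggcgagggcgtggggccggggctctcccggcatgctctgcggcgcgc
Ube2c, chr2:164769679-164769978, plus strand: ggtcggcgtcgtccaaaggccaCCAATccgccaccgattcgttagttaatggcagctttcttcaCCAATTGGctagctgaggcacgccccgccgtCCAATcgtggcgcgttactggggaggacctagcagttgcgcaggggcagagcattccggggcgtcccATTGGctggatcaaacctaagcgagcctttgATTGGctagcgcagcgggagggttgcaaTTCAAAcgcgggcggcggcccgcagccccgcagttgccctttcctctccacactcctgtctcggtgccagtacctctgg
Ccnb2, chr9:70421505-70421804, minus strand: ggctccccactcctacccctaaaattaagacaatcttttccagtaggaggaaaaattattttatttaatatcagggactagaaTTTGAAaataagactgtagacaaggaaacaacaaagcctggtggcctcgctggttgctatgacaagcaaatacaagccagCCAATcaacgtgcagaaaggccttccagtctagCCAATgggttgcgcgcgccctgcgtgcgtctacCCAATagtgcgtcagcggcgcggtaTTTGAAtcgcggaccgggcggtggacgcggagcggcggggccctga
Mcm5, chr8:75109259-75109558, plus strand: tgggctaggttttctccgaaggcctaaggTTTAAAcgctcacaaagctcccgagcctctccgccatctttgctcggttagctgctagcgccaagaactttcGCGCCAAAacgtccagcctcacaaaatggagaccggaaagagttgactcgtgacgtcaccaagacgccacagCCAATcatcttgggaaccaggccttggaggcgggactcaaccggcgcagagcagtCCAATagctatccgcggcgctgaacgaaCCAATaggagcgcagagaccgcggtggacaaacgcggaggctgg

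The Ube2c window holds 1 TTTGAA on the opposite strand, 29 bases before the start, and 6 CCAAT boxes. The Ccnb2 window holds 2 TTTGAA, at positions -167 and 5, and 3 CCAAT boxes. The Mcm5 window holds a TTTGGCGC on the opposite strand at -149, 3 CCAAT boxes and a TTTAAA at -221, and the Birc5 window a TTTAAA at -220. Over 32851 windows of all genes, 17.9% hold TTTGAA, 13.2% TTTAAA, 37.4% CCAAT and 1.56% an E2F site. Of 32 windows of the spindle list (30 of its 35 genes matched), 24 hold TTTGAA and 2 an E2F site (6.25%). Of 21 windows of the G2/M kinase list (20 of 25 genes), 11 hold TTTGAA (52.4%), 17 CCAAT (81.0%) and 0 an E2F site. Of 16 windows of the licensing list (14 of 18 genes), 6 hold TTTGAA (37.5%) and 7 an E2F site (43.8%), and of 34 of the replication fork list (27 of 30 genes) 4 (11.8%) and 6 (17.6%). A match is a description of the letters and not a site of binding.

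Besides the C1q genes, members carried other transcripts of macrophages, most at lower levels than the other C1q macrophages. C1qb, whose presence was set by the rule, was at 2922 and 1981 CPM in members of Control and IR, against 3140 and 2585 CPM in the other C1q macrophages. Csf1r, the receptor gene for the macrophage growth factor CSF1 and no part of the rule, was at 367 and 330 CPM against 430 and 363 CPM. Cd68, a lysosomal protein gene of macrophages, was at 266 and 273 CPM against 350 and 398 CPM, and Adgre1, which encodes F4/80, at 118 and 59.5 CPM against 146 and 108 CPM. Of the 13 genes of the macrophage identity list, which include the 3 C1q genes, 12 had at least 50 CPM. Of these 11 in Control and 12 in IR were lower in members, with medians of -0.26 and -0.54. Lower past 2-fold were 0 in Control and 1 in IR, Apoe, at 175 against 1450 CPM. The 13 genes together were at 14100 and 9179 CPM in members, against 17521 and 14395 CPM in the other C1q macrophages. Markers of the other classes the sort could hold were uneven, with many defining ones at 0 and some list sums above 100 CPM. Cd3d, Cd3g (set to 0 by the rule), Ms4a1, Col1a1, Lum, Krt7, Krt8 and Krt20 were at 0 in all members, and Cd3e had 14 and 2 UMIs. The summed T cell list (11 genes) was at 37.7 and 45.3 CPM, against 51.1 and 43.0 CPM in the other C1q macrophages. The B cell list (6 genes) was at 34.1 and 64.7 CPM against 47.0 and 23.3 CPM, so it was higher in the IR members. The NK list (10 genes) was at 126 and 455.5 CPM, with Gzma at 163 and Gzmb at 127 CPM in IR, against 221 and 660 CPM in the other C1q macrophages. The neutrophil list (9 genes) was at 113 and 172 CPM against 123 and 1404 CPM. The dendritic cell list (10 genes) was at 137 and 16.8 CPM against 64.3 and 207 CPM, and 48.7% of the Ccl22 UMIs of Control members came from 1 cell. The fibroblast list (8 genes) was at 50.9 and 5.18 CPM and the mast cell or basophil list (7 genes) at 0.244 and 0 CPM. Both were lower than in the other C1q macrophages of the same library. The tumor epithelial list (10 genes) was at 127 and 85.4 CPM, of which the adhesion gene Cdh1 was 111 and 82.8 CPM. In the other C1q macrophages this list was at 101.5 and 47.4 CPM, so it was higher in members of both libraries. It was seen in 61.3% and 51.5% of members, against 40.1% and 29.6% of the others, which were shallower cells. Whether RNA of tumor cells had a part in the values of members was not tested. With cells carrying UMIs of 13 markers of other lineages left out, the ratio of the cycling share was 0.430. Of the members, 23 Control cells (8.24%) and 2 IR cells (6.06%) were among the cells with the highest Scrublet doublet scores, 226 of 4249 in Control and 145 of 3159 in IR, against 4.93% and 5.42% of the other C1q macrophages.

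Transcripts of secreted and lysosomal products were among those lower in members than in the other C1q macrophages. Of 8 genes lower past 2-fold in both libraries, Mmp12, the macrophage elastase, was at 334 CPM in Control members against 768 CPM and at 440 CPM in IR members against 1117 CPM. Ccl6, a chemokine gene, was at 616 against 1600 CPM and at 1057 against 2232 CPM. Ctsl, which encodes a lysosomal protease, was at 333 against 686 CPM and at 525 against 1120 CPM. Hmox1, which encodes heme oxygenase, was at 114 against 259 CPM and at 98.3 against 355 CPM. Wfdc17, a secreted inhibitor gene of activated macrophages, was at 269 against 553 CPM and at 123 against 423 CPM. The others were Cxcl3, Mmp13 and Slfn5, each under 20 CPM in Control members. Of the tumor macrophage list 3 of 10 genes kept in Control and 4 of 10 in IR were lower past 2-fold, with medians of -0.69 and -0.80. Of the resident-like list 3 of 8 and 1 of 6 genes were lower past 2-fold, with medians of -0.86 and -0.76. MHC class II genes, which present antigen to CD4 T cells, had medians of -0.07 and -0.32. The inflammatory list had a median of -0.20 in Control, with 0 of 11 genes lower past 2-fold, and -1.05 in IR, with 7 of 12. In IR the other C1q macrophages also held the neutrophil list at 1404 CPM, against 172 CPM in members. Whether this had a part in the IR values of the inflammatory list was not tested. Il1b, an inflammatory cytokine gene, was at 804 against 959 CPM in Control and at 1064 against 2028 CPM in IR. Interferon genes had medians of -0.21 and -0.61.

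**Figure D4:**
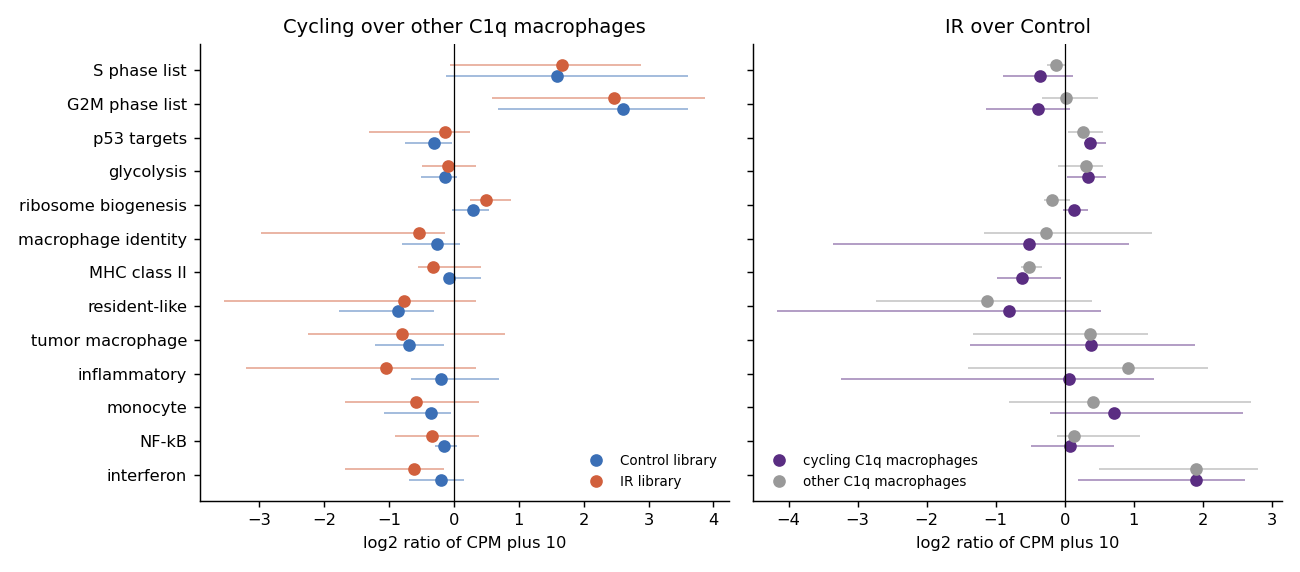
Log2 ratio of CPM plus 10 (x axis) for gene lists (y axis), between cycling and other C1q macrophages in each library (left) and between IR and Control in each population (right). Points are medians over the genes kept and lines run from the lowest to the highest gene. The phase lists lie at 1.59 to 2.61 on the left, and on the right interferon lies at 1.90 in both populations, over 11 and 14 genes kept.

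Cycling members of IR were compared with those of Control, 33 against 279 cells, with 772758 and 4106407 UMIs. Of 3159 genes 56 were higher past 2-fold (1.77%) and 44 lower (1.39%), against 93 (3.21%) and 27 (0.931%) of 2901 genes in the other C1q macrophages. The median log2 ratio over all genes was 0.03 in members and -0.01 in the others.

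Interferon-stimulated genes were higher in the IR members. Of 11 genes kept 10 were higher past 2-fold, with a median log2 ratio of 1.90, and in the other C1q macrophages 13 of 14, also with a median of 1.90. Irf7, a transcription factor of the interferon response, was at 32.4 CPM in Control members and 248 CPM in IR members (log2 ratio 2.61), and was detected at 5000 UMIs in 32 of 267 and 17 of 33 members. Ifitm3, an antiviral membrane protein gene, was at 636 and 2391 CPM and was detected in 202 of 267 and 32 of 33 members. Isg15, a ubiquitin-like interferon product, had 308 and 241 UMIs in members, a log2 ratio of 1.92, and was at 84.1 and 632 CPM in the others (2.77). Its exact intervals without a pseudocount were 1.81 to 2.30 and 2.81 to 3.01. Rtp4 and Rsad2, interferon-induced genes, were at 24.8 and 129 CPM and at 18.8 and 105 CPM, but 44.4% of the Rsad2 UMIs of IR came from 1 cell.

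Of the monocyte list 4 of 8 genes kept were higher past 2-fold in IR members, with a median of 0.72, and 3 of 9 in the others, with 0.42. The list includes Ly6c2, Ccr2 and Chil3, whose UMIs the rule held below those of the C1q genes, so these values are partly bounded by it. Plac8, a gene of inflammatory monocytes, was at 97.9 and 639 CPM, with log2 ratios of 2.59 in members and 2.10 in the others. Thbs1, which encodes thrombospondin, was at 106 and 431 CPM, with 1.92 and 0.86. Ms4a4c was at 46.3 and 180 CPM, with 1.75 and 2.53. Spp1, which encodes osteopontin, was at 1344 CPM in Control and 4976 CPM in IR, with 1.88 in members and 1.15 in the others. Without a pseudocount its log2 ratio had exact intervals of 1.83 to 1.95 and 1.13 to 1.18, and it was detected in 222 of 267 and 31 of 33 members. Cxcl3, Gzma and Gzmb completed the 12 genes with the largest ratios, and few cells carried them. In IR 57.1% of the Cxcl3 UMIs, 47.6% of the Gzma UMIs and 55.1% of the Gzmb UMIs came from 1 cell, and at 5000 UMIs 5, 5 and 3 of 33 members had any. Gzma and Gzmb are granzyme genes of NK cells, and with cells carrying UMIs of 13 markers of other lineages left out, the Gzma ratio turned to -1.02 and that of Gzmb to 0.02.

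The 12 genes lower by most in the IR members included a lipid carrier, a complement component and several chemokines. Apoe, the lipid carrier of macrophages (chromosome 7, 19696109 to 19699188), was at 1881 CPM in Control members and 175 CPM in IR members (log2 ratio -3.36), and at 3281 and 1450 CPM in the others (-1.17). At 5000 UMIs it was detected in 199 of 267 Control members and 9 of 33 IR members, against 81.0% and 54.7% of the others. Cxcl9, the interferon-gamma-induced chemokine for T cells, was at 1081 and 105 CPM in members (-3.25), detected in 156 of 267 and 7 of 33, and at 928 and 344 CPM in the others (-1.40). C3, the central complement gene, was at 167 and 27.2 CPM (-2.25), detected in 106 of 267 members and 1 of 33, against 182 and 128 CPM in the others (-0.48). Gatm, an enzyme gene of creatine synthesis, was at 632 and 119 CPM (-2.31), and in the others at 377 and 121 CPM (-1.56). The exact intervals of the log2 ratio without a pseudocount were -3.68 to -3.18 in members and -1.21 to -1.14 in the others for Apoe, and -3.70 to -3.05 and -1.50 to -1.36 for Cxcl9. For both genes the intervals of the populations lay apart, but they hold counting error alone and not the spread between cells. The difference between the populations was not tested.

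Ccl5, a chemokine gene of T and NK cells and activated macrophages, went in opposite directions. It was at 252 CPM in Control members and 47.9 CPM in IR members (-2.18), and at 277 and 525 CPM in the others (0.90). It was detected at 5000 UMIs in 42 of 267 and 4 of 33 members, and in 20.7% and 31.8% of the others. AW112010, an interferon-gamma-induced transcript, was at 1106 and 436 CPM in members (-1.32) and at 973 and 1042 CPM in the others (0.10). Retnla, a marker of alternatively activated macrophages, was at 588 and 23.3 CPM (-4.17), but 17 of its 18 IR UMIs were in 1 cell (94.4%), and in Control 28 of 267 members had any. Ccl8 had 629 and 2 UMIs in members, a log2 ratio without a pseudocount of -5.89 with an exact interval of -8.94 to -4.03. Timp2, Ms4a7, Slc7a2 and Selenop were lower by log2 ratios of -1.31 to -1.59 in members and of -0.61 to -1.56 in the others.

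**Figure D5:**
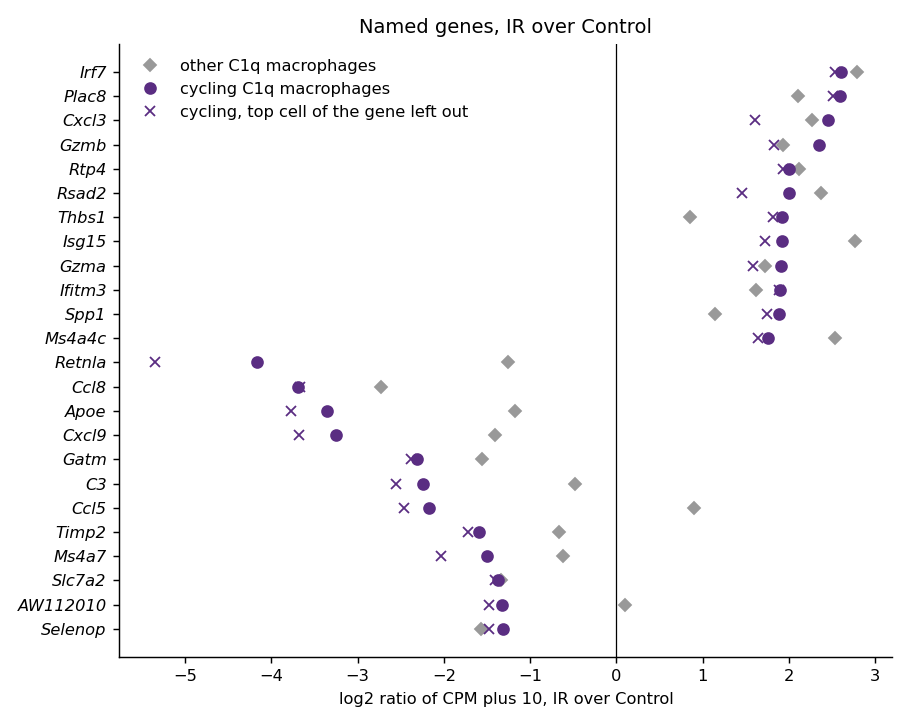
Log2 ratio of CPM plus 10, IR over Control (x axis), of the 24 genes named by size (y axis), in cycling (purple circles) and other C1q macrophages (grey diamonds), and in cycling ones with the cell holding most UMIs of the gene left out in each library (crosses). Ccl5 lies at -2.18 in cycling and 0.90 in other cells, and Retnla moves from -4.17 to -5.36 without its top cells.

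Among genes with at least 50 CPM in either library, the lists of this paragraph had none past 2-fold in the IR members. The median log2 ratio over all genes kept was 0.03 in members and -0.01 in the others. MHC class II genes had ratios below 1 in 8 of 8 cases with a median log2 ratio of -0.62, and in 7 of 7 in the others with -0.52. Cd74, the invariant chain, was at 12844 and 8088 CPM, and H2-Aa at 4612 and 2426 CPM. Glycolysis genes had ratios above 1 in 14 of 14 cases with a median of 0.33, and in the others in 11 of 13 with 0.31, with Pkm, pyruvate kinase, at 1048 and 1589 CPM. Of 15 p53 targets, which answer DNA damage, only 4 were kept in each population, and those below the minimum were not counted. The kept ones had ratios above 1 in 4 of 4 with a median of 0.37, and in the others in 4 of 4 with 0.26. Among them Cdkn1a, an inhibitor of cyclin-dependent kinases, was at 387 and 532 CPM and Bax, a gene of the cell death machinery, at 204 and 314 CPM. NF-kB genes had ratios above 1 in 7 of 13 and below it in 6, all short of 2-fold, with a median of 0.08, and Nfkbia, the inhibitor subunit, was at 486 and 628 CPM. Growth receptor and self-renewal genes had a median of -0.20, with Klf4, a transcription factor gene of macrophages, at 479 and 321 CPM.

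S list genes had ratios below 1 in 16 of 18 cases with a median of -0.37 and none past 2-fold, and G2M list genes in 31 of 36 with -0.39, of which 2 were lower past 2-fold. Because IR members were deeper, the threshold of 5 UMIs stood at a smaller CPM there. With members defined at 5000 UMIs and at least 3 rule-gene UMIs, a definition added after the data were seen, the medians were -0.34 and -0.28. D-type cyclins went the other way. Ccnd1 was at 179 and 344 CPM (log2 ratio 0.91), against 184 and 211 CPM in the others (0.19), although 30.8% of its IR UMIs were in 1 member. Ccnd3 was at 73.8 and 133 CPM (0.77), against 56.6 and 90.8 CPM in the others (0.60). Ccnd2, named after its values were seen, was at 47.5 and 176 CPM (1.69), against 77.4 and 200.2 CPM (1.27).

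Ythdf2 (chromosome 4, 132184912 to 132212303), the reader of the RNA modification m6A that the study is about, had 220 UMIs in Control members and 42 in IR members. This was 53.6 CPM (exact Poisson interval 46.7 to 61.1) and 54.4 CPM (39.2 to 73.5), and the log2 ratio without a pseudocount was 0.02 (-0.49 to 0.50). No difference was detectable at this depth. In the other C1q macrophages Ythdf2 was at 43.8 and 36.5 CPM, a log2 ratio of -0.26 (-0.51 to -0.02). Of the m6A readers, writers and erasers 4 of 11 had at least 50 CPM in members, with log2 ratios from -0.41 to 0.04.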

How the data were processed

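Single-cell RNA was measured in 2 libraries of CD45+ cells from MC38 tumors, Control and IR. The authors deposited unfiltered raw UMI counts per gene and barcode (10x Chromium 3' v3.1). Their processing notes name Cell Ranger 6.0.1 and the build mm10, while the header of the matrices names Cell Ranger 4. Both held 32285 genes, with 48593879 UMIs in Control and 42406461 in IR. The study removed cells with under 200 genes, and called doublets with DoubletFinder. Here doublets were weighed by Scrublet scores (scanpy 1.11.5), since its automatic threshold marked 0 cells.

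Cells and members were gated on raw counts by the rule given above. Counts were summed per library and population and expressed as CPM, with exact Poisson intervals. Shares have exact Clopper-Pearson intervals, their ratios log-method intervals and ratios of counts exact conditional intervals. Log2 ratios use CPM plus 10 unless stated. Cells were thinned without replacement from a fixed seed. Named were the 12 genes with the largest ratio in each direction past 2-fold (cycling over other: at least 50 CPM and the same sign in both libraries, ranked by the smaller ratio, and IR over Control in members: at least 100 CPM), the up to 4 genes with most UMIs of each list, and Ythdf2. Genes with other values in the text were picked for their role or as markers after values were seen. The ranking left out the rule genes and those of the mitochondrial genome and the sex chromosomes' Xist and Y genes. Of both libraries' cells, 6 share a barcode, none of them C1q macrophages in both. Alternatives concerned the thresholds, depth, doublets, scaling (TMM, edgeR 4.0.16), pseudocount, CPM minimum and free RNA. The code was tested on simulated counts. Gene positions are those of GENCODE vM21 (GRCm38). The members and lists were chosen with earlier results of these data known.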

Additional observations from a re-analysis of the deposited data

Results flagged for a closer look

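Ccl5 was flagged because IR and Control differed in opposite directions in the 2 populations. The log2 ratio of CPM plus 10, IR over Control, was -2.18 in cycling C1q macrophages and 0.90 in the other C1q macrophages, a difference that was not tested. From Control to IR the dendritic cell list rose from 64.3 to 207 CPM in the others and fell from 137 to 16.8 CPM in members. The NK list rose in both populations, from 221 to 660 CPM in the others and from 126 to 455.5 CPM in members. Whether either had a part in the Ccl5 values was not tested. The IR members held 37 UMIs of Ccl5 and 43.2% of them were in 1 cell, and with the top cell of each library left out the ratio was -2.47. Over the alternatives the ratio ran from -4.53 to -1.27.

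Interferon genes were flagged in data outside the comparisons. In barcodes of at most 100 UMIs, taken as empty droplets, the 16 interferon genes were at 5479 CPM in IR (exact interval 5407 to 5553) and 2145 CPM in Control (2106 to 2185). The same list was at 4564 and 1454 CPM in the cycling C1q macrophages.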

How the results depend on the processing

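The ratio of the cycling share, 0.447, ran from 0.326 to 0.458 over 13 of its 14 alternatives, all within its interval. With 15 UMIs of the raw S phase and G2M lists in place of the 5 genes it was 1.07. That bar was met by 896 of 1659 Control and 254 of 439 IR cells and is not scaled to depth, and at 5000 UMIs and more than 10 UMIs of a list, added after the data were seen, the ratio was 0.434. The S-led share of Control members, 26.5%, became 21.1% at a threshold of 10 UMIs and 20.3% when thinned to 2000 UMIs. With a pseudocount of 1 the G2M medians of cycling over other cells were 3.82 in Control and 3.85 in IR. With 50 they were 1.38 and 1.22, the S medians 0.97 and 0.94, and the interferon median of IR over Control 1.17. Counts past 2-fold moved most. With a pseudocount of 50 they were 81 higher and 5 lower in Control members, 57 and 44 in IR members, and 22 and 13 for IR over Control. With 20 UMIs in place of the CPM minimum they were 300 and 27 in Control members, 222 higher in IR members, and 92 and 71 for IR over Control. The IR count of 111 higher genes became 174 without mitochondrial and ribosomal genes in the CPM total. The Control count of 17 lower genes became 26 at a threshold of 10 UMIs and 26 with the mean of the CPM of each cell. The cause of these moves was not tested. Without cells carrying markers of other lineages, Gzma turned from 1.91 to -1.02. Of the values of single genes, 270 stayed within their interval, 53 moved outside it in the same direction and 1 turned. TMM scaling moved the median of all genes, IR over Control in members, from 0.03 to -0.06, and the 4 list medians kept their sign in every alternative run. Depth limits the IR side most, with 33 members and 772758 UMIs. No paired analysis was possible because each group held a single library.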
